A study of Mus musculus with 36 samples.

Results

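The glucocorticoid target genes described here are 10 genes found by symbol among the 24421 genes of the count tables, namely Fkbp5, Nr3c1, Tsc22d3, Sgk1, Zbtb16, Tat, Mt1, Mt2, Gadd45g and Hsd11b1. They were followed in liver RNA of 36 male C57BL/6J mice, 1 library per mouse, which had all been fed the CDAHFD for 12 weeks. The CDAHFD is high in fat, lacks choline and holds amino acids in place of protein, and it causes fatty, inflamed and scarred livers. The mice had been bought at 7 weeks of age. The HFD was then fed for 2 weeks to 10 mice given Fc (4.3 mg/kg) and to 10 given Fc(mML1)B3 (5 mg/kg), once a week under the skin. The standard diet was fed for 10 days to 9 mice given Fc and to 7 given Fc(mML1)B3, with these doses injected on days 1, 4 and 7. Fc is the constant fragment of a human antibody and was the control, and Fc(mML1)B3 is the same fragment with a peptide grafted into a loop that binds and activates mouse Met, the receptor of hepatocyte growth factor. No mouse without the CDAHFD was included, so every value belongs to an injured or recovering liver.

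Glucocorticoids such as corticosterone enter hepatocytes and bind the glucocorticoid receptor, the product of Nr3c1, which is held ready by heat shock proteins and their partners. The bound receptor moves to the nucleus and switches on target genes, of which Fkbp5, Tsc22d3, Sgk1, Zbtb16, Tat, Mt1 and Mt2 are widely used. Hsd11b1 works one step earlier, because its enzyme remakes active corticosterone inside the cell. In liver the pathway is known for gluconeogenesis, amino acid breakdown and the restraint of inflammation, and corticosterone itself follows a daily rhythm.

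All 10 genes passed the filter on low counts in every fit, and none shares exon sequence with another gene. Library totals were 14949035 to 28466853 counted reads. Hepatocyte markers summed to between 79569 and 152347 CPM in every library (CPM are reads relative to the library total after TMM scaling, which assumes that most genes do not change), while the adipocyte markers Adipoq, Plin1 and Lep summed to at most 0.665 CPM. In these bulk samples, fewer cells of a type and less RNA per cell cannot be told apart. Numbers in the names of the deposited tables fall into series, called index series here, although no source states what they mark. Under the HFD, the Fc mice are in 1 series and mice 1 to 4 and 5 to 10 of the Fc(mML1)B3 group in 2 others, so that series and protein cannot be told apart there.

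Promoter windows of 300 bases were searched for short motifs, and bases beyond these windows were not searched. The table of RefSeq promoters used here held 15 such windows for 8 of the 10 genes, all but Nr3c1 and Zbtb16, on GRCm38.p6, the same build as mm10, each from 250 bases before a start to 50 bases after it. Searched on both strands were the receptor palindrome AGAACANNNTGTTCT, its half-site TGTTCT, the E-box CACGTG bound by clock proteins, and the metal response element TGCACNC or TGCGCNC. The half-site is part of the palindrome. The palindrome was in 1 window of Sgk1 and in 3 of 32851 mouse windows (0.00913%). Its absence from a window therefore does not show that a gene lacks a receptor site. The E-box was in a window of Fkbp5, Gadd45g and Sgk1 and in 7.15% of all windows, the half-site in windows of Sgk1 and Tsc22d3 and in 19.0%, and the metal response element in windows of Mt1, Mt2, Gadd45g, Hsd11b1 and Sgk1 and in 25.7%. The windows of Sgk1 (chr10:21993640-21993939, plus strand), Fkbp5 (chr17:28486100-28486399, minus strand), Mt1 (chr8:94178839-94179138, plus strand) and Mt2 (chr8:94172368-94172667, plus strand) are printed 5′ to 3′. Sgk1 held the palindrome, Fkbp5 was called under both diets, and Mt1 and Mt2 moved together. Capitals mark the palindrome and the E-box in Sgk1, the E-box in Fkbp5 and the metal response elements of either strand in Mt1 and Mt2.
Sgk1: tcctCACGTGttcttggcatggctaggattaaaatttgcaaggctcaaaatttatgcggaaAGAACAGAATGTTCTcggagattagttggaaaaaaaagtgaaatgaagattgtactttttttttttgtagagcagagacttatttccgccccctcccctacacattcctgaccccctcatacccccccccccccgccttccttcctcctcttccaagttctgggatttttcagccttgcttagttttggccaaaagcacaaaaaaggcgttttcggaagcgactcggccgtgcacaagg
Fkbp5: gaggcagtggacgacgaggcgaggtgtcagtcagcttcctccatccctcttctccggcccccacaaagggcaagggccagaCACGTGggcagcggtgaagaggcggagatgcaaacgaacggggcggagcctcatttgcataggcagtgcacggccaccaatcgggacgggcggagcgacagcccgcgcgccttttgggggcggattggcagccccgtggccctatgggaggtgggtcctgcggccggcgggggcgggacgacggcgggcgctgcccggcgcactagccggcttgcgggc
Mt1: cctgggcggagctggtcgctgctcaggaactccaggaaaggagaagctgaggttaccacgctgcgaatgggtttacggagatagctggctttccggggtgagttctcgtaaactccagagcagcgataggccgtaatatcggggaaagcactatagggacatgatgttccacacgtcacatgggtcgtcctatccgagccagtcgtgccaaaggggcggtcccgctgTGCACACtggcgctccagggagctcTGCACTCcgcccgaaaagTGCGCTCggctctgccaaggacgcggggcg
Mt2: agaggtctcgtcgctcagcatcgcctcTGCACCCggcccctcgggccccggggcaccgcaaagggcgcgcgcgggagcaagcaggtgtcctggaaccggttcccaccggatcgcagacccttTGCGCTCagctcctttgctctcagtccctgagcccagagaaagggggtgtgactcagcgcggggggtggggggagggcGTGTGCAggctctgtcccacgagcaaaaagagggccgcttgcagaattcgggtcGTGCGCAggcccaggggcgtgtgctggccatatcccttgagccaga
Counted with 0 at the start base, the palindrome of Sgk1 began at -189 (chr10:21993701-21993715) and the E-box of Fkbp5 at -169 (chr17:28486313-28486318). Mt1 held 3 metal response elements and Mt2 held 4 in these windows. A match is a description of letters and not of a bound site.

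Compared per exon length (RPKM, CPM per kilobase of exon), the genes spanned a wide range of levels in the Fc group under the HFD. Tat had the highest median at 393.8 RPKM, before Mt1 at 310.3 and Hsd11b1 at 266 RPKM, and the ranges of these 3 over mice overlapped. Mt2 followed at 64.3, Tsc22d3 at 33.5, Nr3c1 at 12.98 and Sgk1 at 11.9 RPKM, and the ranges of Nr3c1 and Sgk1 overlapped. Fkbp5 was at 6.71, Gadd45g at 6.00 and Zbtb16 at 0.901 RPKM, and of these 3 the Zbtb16 mice (0.227 to 1.98 RPKM) lay below all others. All values after this are CPM, which compare 1 gene between mice.

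Under the HFD, 4 of the 10 genes were higher with Fc(mML1)B3 and 2 lower, at an adjusted p below 0.05 in edgeR's quasi-likelihood test, where 8.14% of the 13299 genes tested were called higher and 6.68% lower. The higher genes were Fkbp5, Zbtb16, Tsc22d3 and Hsd11b1, and the lower genes were Mt1 and Mt2. The median log2 fold change was 0.30 over the 10 genes and -0.01 over all genes tested. The 10 genes were chosen with earlier results of these data known, so setting them against all genes is not an independent test. Nr3c1, Sgk1, Tat and Gadd45g were not called. At the study's thresholds for this diet, a fold change above 2 with an adjusted p under 0.1, which 1.34% of genes passed in either direction, Fkbp5 and Zbtb16 were higher and Mt1 and Mt2 lower.

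Fkbp5 encodes FKBP51, a co-chaperone that lowers the receptor's affinity for hormone, and its gene occupies positions 28398753 to 28486149 of chromosome 17 (mm10, minus strand). Under the HFD, its lowest, median and highest mouse had 15.7, 26.1 and 41.0 CPM in the Fc group and 34.6, 54.7 and 82.1 CPM in the Fc(mML1)B3 group. All 10 Fc(mML1)B3 mice lay above the Fc median and 8 above every Fc mouse, so the groups overlapped slightly. Mean Fkbp5 was 26.4 ± 7.25 CPM with Fc (SD, n = 10), and with Fc(mML1)B3 it rose to 56.8 ± 16.1 CPM (SD, n = 10). On the log2 scale Fkbp5 was 1.12 higher (SE, the standard error of the log2 fold change, 0.17, adjusted p = 7.27e-05). Permuting the group labels 100000 times gave p = 1e-04 for mean log2 CPM (2-sided). Fkbp5 was called with the Fc(mML1)B3 mice of either index series, at 1.36 with mice 1 to 4 and 0.95 with mice 5 to 10.

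Zbtb16 encodes PLZF, a zinc finger transcription factor induced by the receptor, on chromosome 9 from 48654297 to 48835945. Its lowest, median and highest values under the HFD were 1.16, 4.61 and 10.1 CPM with Fc and 6.08, 14.05 and 26.1 CPM with Fc(mML1)B3. All 10 Fc(mML1)B3 mice were above the Fc median and 6 above every Fc mouse. The log2 fold change was 1.68 (SE 0.32, adjusted p = 0.00102, permutation p = 3e-04). The Fc mice held 22 to 184 reads of Zbtb16, and the part of counting error in its spread was not tested. With Fc(mML1)B3 mice 1 to 4 the log2 fold change was 2.15 and with mice 5 to 10 it was 1.26, and both were called.

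Tsc22d3 encodes GILZ, a leucine zipper protein through which glucocorticoids act against inflammation, on chromosome X from 140539529 to 140600522. It ranged from 46.3 to 178.9 CPM around a median of 88.8 CPM with Fc and from 125.1 to 226.5 CPM around 172.8 CPM with Fc(mML1)B3. All 10 Fc(mML1)B3 mice were above the Fc median and 5 above every Fc mouse. The log2 fold change was 0.89 (SE 0.19, adjusted p = 0.00266, permutation p = 3.8e-04), and it was 1.08 and 0.75 with mice 1 to 4 and 5 to 10, called with both. Hsd11b1, on chromosome 1 from 193221641 to 193264045, had medians of 385 and 492 CPM and a log2 change of 0.35 (SE 0.11, adjusted p = 0.0351, permutation p = 0.00638). All 10 Fc(mML1)B3 mice lay above its Fc median, but it was not called with either index series alone (0.40 and 0.33), and 8 of the 20 fits without 1 mouse no longer called it.

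**Figure D1:**
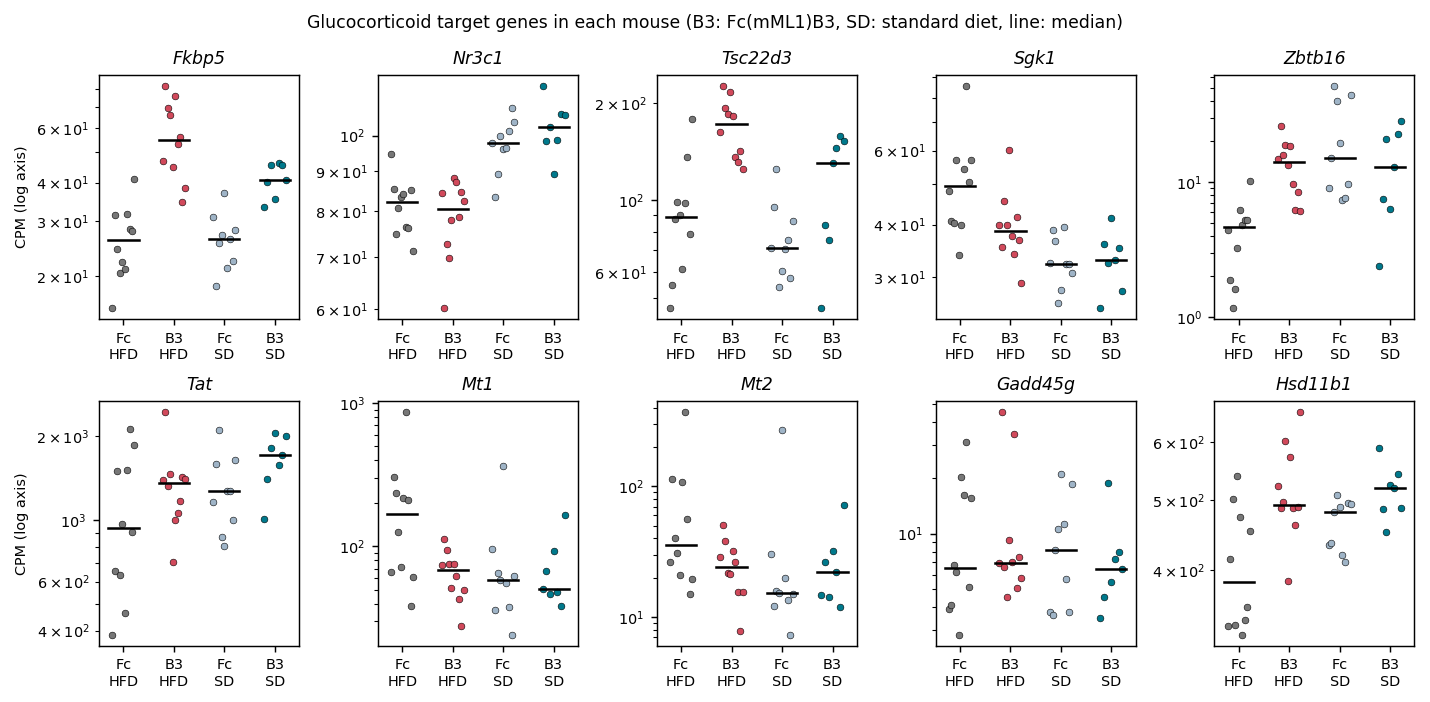
CPM of the 10 genes on log axes, 1 point per mouse and a line at the median, in the Fc and Fc(mML1)B3 groups under the HFD (n = 10 and 10) and the standard diet (n = 9 and 7). For Fkbp5, 8 of 10 Fc(mML1)B3 mice under the HFD and 5 of 7 under the standard diet lay above every Fc mouse of their diet, while single Fc mice stood far above the rest for Mt1 and Mt2.

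Mt1 and Mt2 encode metallothioneins, small proteins that bind zinc and copper and are induced by metals, inflammation and glucocorticoids, and they lie side by side on chromosome 8 (Mt2 from 94172618 to 94173567, Mt1 from 94179089 to 94180327). Unlike the other target genes called under the HFD, they were lower with Fc(mML1)B3. Mt1 ranged from 38.5 to 865 CPM around a median of 168 CPM with Fc and from 28.01 to 113 CPM around 68.2 CPM with Fc(mML1)B3. Each of the 10 Fc(mML1)B3 values was below the Fc median, and 1 was below every Fc value. The log2 fold change was -1.71 (SE 0.43, adjusted p = 0.00978, permutation p = 0.0148). Mt2 ranged from 15.1 to 373 CPM around 35.7 CPM with Fc and from 7.82 to 50.6 CPM around 24.0 CPM with Fc(mML1)B3, a log2 change of -1.62 (SE 0.50, adjusted p = 0.0313). The permutation test of Mt2 gave p = 0.0584, and its Fc median was above 8 of the 10 Fc(mML1)B3 mice.

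Fc mouse 7 of the HFD experiment had the highest Mt1 and Mt2 of all mice. Without it, Mt1 was at -1.14 (adjusted p = 0.0246) and remained called, while Mt2 was at -0.87 (adjusted p = 0.125) and was not. Mt1 was called in all 20 fits without 1 mouse, and Mt2 in all but 7 of them. With Fc(mML1)B3 mice 1 to 4 alone, neither was called (-1.27 and -1.17), and with mice 5 to 10 both were (-2.08 and -2.01). The neutrophil markers S100a8, S100a9, Mpo, Retnlg and Csf3r summed to 67.9 CPM in Fc mouse 7 and to 13.3 to 61.7 CPM in the other Fc mice, against 11.3 to 20.4 CPM in the Fc(mML1)B3 group. Of 4 neutrophil markers tested, 3 were called lower with Fc(mML1)B3, and their part in the metallothionein values was not tested.

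Nr3c1, the receptor's own gene on chromosome 18, ranged from 71.2 to 94.8 CPM with Fc and from 60.2 to 88.2 CPM with Fc(mML1)B3 under the HFD, a log2 change of -0.04 (SE 0.07, adjusted p = 0.76). Sgk1, a kinase that regulates sodium transport and cell survival, was at -0.33 (SE 0.14, adjusted p = 0.108) with medians of 49.3 and 38.7 CPM, and its Fc median was above 9 of 10 Fc(mML1)B3 mice. Sgk1 was called lower without Fc(mML1)B3 mouse 5 (-0.41, adjusted p = 0.0279) and with all 36 libraries in 1 fit. Tat, the first enzyme of tyrosine breakdown, was at 0.30 (SE 0.27, adjusted p = 0.487), and its Fc mice alone spanned 387 to 2125 CPM. Gadd45g, a stress-induced growth arrest gene, was at 0.29 (SE 0.49, adjusted p = 0.725) with medians of 6.48 and 6.97 CPM.

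**Figure D2:**
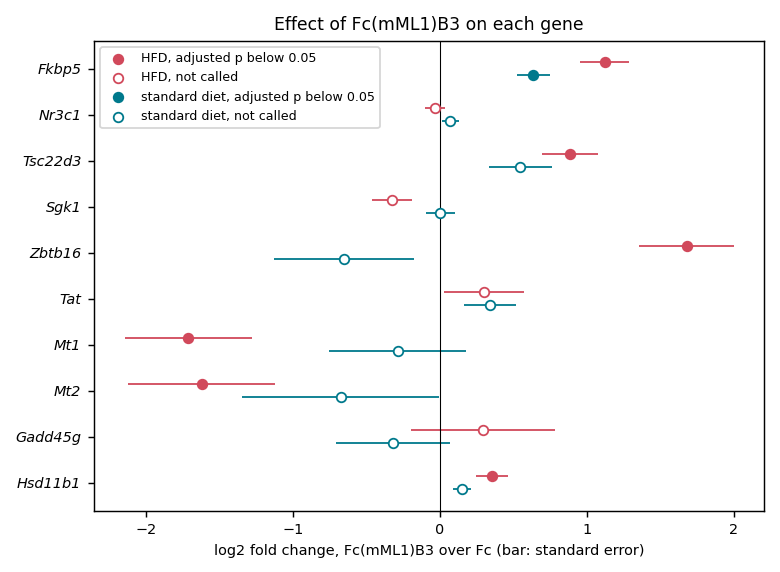
Log2 fold change of Fc(mML1)B3 over Fc for each gene, with bars of 1 standard error, under the HFD and the standard diet. Filled points have an adjusted p below 0.05. Fkbp5 was called under both diets (1.12 and 0.63), and Zbtb16 lay at 1.68 under the HFD and at -0.65, not called, under the standard diet.

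Under the standard diet, Fkbp5 was the 1 gene of the 10 that was called, where 8.56% of the 13570 genes tested were called higher and 7.55% lower. Its lowest, median and highest values were 18.6, 26.4 and 37.1 CPM with Fc and 33.3, 40.6 and 46.2 CPM with Fc(mML1)B3. All 7 Fc(mML1)B3 mice lay above the Fc median and 5 above every Fc mouse. The log2 fold change was 0.63 (SE 0.11, adjusted p = 0.00062, exact permutation p = 5.24e-04 over 11440 groupings). With the mice of the 1 index series shared by both proteins, it was 0.74 and called. The study's text and figure legend state unequal thresholds for this diet. With its fold change of 1.55, Fkbp5 passed those of the legend, a fold change above 1.5 with an adjusted p under 0.05, as 2.36% of genes did, and missed the fold change above 2 of the text. Each of the 16 fits without 1 mouse called it, with log2 fold changes of 0.58 to 0.71. Of the 13200 genes tested under both diets, 182 (1.38%) were called higher under both, and Fkbp5 was among them.

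Of the other genes, Tsc22d3 ranged from 54.1 to 125.2 CPM with Fc and from 46.5 to 157.7 CPM with Fc(mML1)B3 under the standard diet, a log2 change of 0.55 (SE 0.22, adjusted p = 0.094, exact permutation p = 0.0918). In the Fc(mML1)B3 group, 4 of 7 mice exceeded every Fc mouse for Tsc22d3 and 1 lay below every Fc mouse. Hsd11b1 was at 0.15 (SE 0.06, adjusted p = 0.099, exact permutation p = 0.0276) with 6 of 7 mice above the Fc median. Tat was at 0.34 (SE 0.18, adjusted p = 0.204), and 6 of 7 mice were above its Fc median. Zbtb16 was at -0.65 (SE 0.48, adjusted p = 0.388) and spread widely, from 7.33 to 51.7 CPM with Fc and from 2.399 to 28.2 CPM with Fc(mML1)B3. Sgk1 was at 0.00, Nr3c1 at 0.07 and Gadd45g at -0.32, and their groups overlapped. With edgeR 0 of the 10 genes were called lower, as with DESeq2 and limma-voom, and 0 were lower at an unadjusted p below 0.05.

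Mt1 and Mt2 were at -0.29 and -0.68 under the standard diet (adjusted p = 0.717 and 0.536). Fc mouse 5 had 365 CPM of Mt1 and 269 CPM of Mt2, while the other Fc mice had 24.3 to 95.3 and 7.33 to 30.3 CPM. Without this mouse, the log2 fold changes were 0.42 and 0.77, so both directions rest on 1 mouse. The same mouse had the highest neutrophil marker sum of its group, 65.4 CPM against 11.8 to 17.3 CPM, and the highest sum of 15 acute phase genes, 50949 CPM against 22409 to 28390 CPM. Their part in its metallothionein values was not tested.

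**Figure D3:**
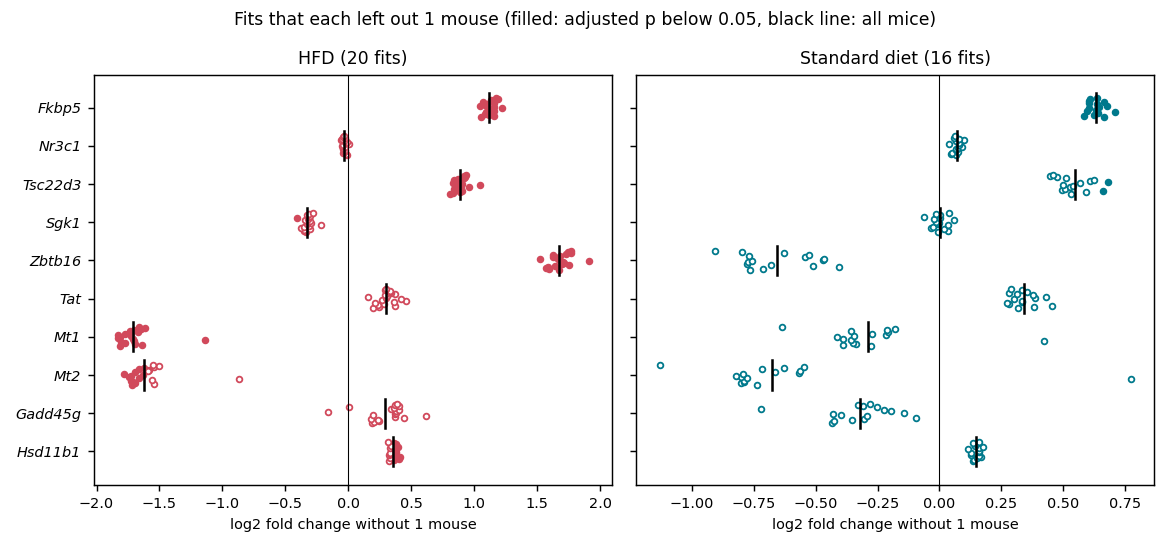
Log2 fold change of Fc(mML1)B3 over Fc in fits without 1 mouse (20 under the HFD, 16 under the standard diet), with filled points at an adjusted p below 0.05 and a black line at the value with all mice. Mt2 moved from -1.62 to -0.87 without 1 Fc mouse under the HFD, and Mt1 and Mt2 crossed 0 without 1 Fc mouse under the standard diet.

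An interaction term tested, over 14105 genes, whether the protein acted unequally in the 2 diets, and 9.06% of genes were called (4.4% lower and 4.66% higher). Of the 10 genes, Zbtb16 was called, with an effect lower by 2.32 on the log2 scale under the standard diet (SE 0.61, adjusted p = 0.0105). Fkbp5 was at -0.47 (SE 0.22, adjusted p = 0.202) and Mt1 at 1.43 (SE 0.67, adjusted p = 0.202). Without Fc mouse 5 of the standard diet, Mt1 was at 2.14 (adjusted p = 0.0152) and Mt2 at 2.402 (adjusted p = 0.0196), and both were called. The diets belong to separate experiments that also differed in duration, dosing and index series, and these cannot be told apart from diet.

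Levels in the 2 Fc groups differed between the experiments for 4 of the 10 genes, 2 higher and 2 lower under the standard diet. Of all genes, 47.9% were called (23.3% higher and 24.6% lower), so a count of 4 is not particular to these genes. Zbtb16 was higher under the standard diet by 2.38 on the log2 scale (SE 0.43, adjusted p = 2.02e-05), with 5 of 9 mice above every HFD mouse. Nr3c1 was also higher, by 0.26 (SE 0.06). Sgk1 had a log2 change of -0.62 (SE 0.13) and Mt1 one of -1.31 (SE 0.47), the latter lost without Fc mouse 7 of the HFD experiment (-0.74, adjusted p = 0.142). Fkbp5 was at 0.00, with medians of 26.1 and 26.4 CPM in the Fc groups. In the Fc(mML1)B3 groups, where 38.5% of genes were called (20.7% higher and 17.9% lower), Nr3c1 was higher under the standard diet (0.38, SE 0.07), with all 7 mice above every HFD mouse. Fkbp5 was at -0.47 (SE 0.16) and Tsc22d3 at -0.59 (SE 0.23), and both were called lower. Zbtb16 was at 0.06 (SE 0.43) in these groups and was not called. The call of Tsc22d3 was lost without 1 mouse in 6 of 36 cases. These comparisons share mice with those within the diets. Markers moved with them under the standard diet, some at rates near the shares of all genes. Called lower in the Fc groups were 5 of 5 T cell, 3 of 4 B cell and 4 of 6 stellate cell markers. The same held for 2 of 4 neutrophil, 1 of 4 cholangiocyte and 1 of 6 macrophage markers. Called higher were 2 of 6 hepatocyte and 1 of 4 endothelial markers and 7 of 8 metal response genes. Called lower in the Fc(mML1)B3 groups were 2 of 5 T cell, 3 of 6 stellate cell and 2 of 4 cholangiocyte markers. So were 1 of 4 neutrophil and 1 of 6 macrophage markers. Called higher were 1 of 4 B cell, 1 of 6 hepatocyte, 1 of 4 endothelial and 1 of 2 adrenal cortex markers. Of the 8 metal response genes, 3 were called higher and 2 lower. Of 15 acute phase genes, 4 were called higher and 6 lower in the Fc groups and 0 higher and 8 lower in the Fc(mML1)B3 groups. Of 12 receptor chaperones and cofactors, 6 were called higher and 0 lower in the Fc groups and 6 higher and 6 lower in the Fc(mML1)B3 groups. Of 17 clock genes, 5 were called higher and 6 lower in the Fc groups and 8 higher and 5 lower in the Fc(mML1)B3 groups. The part of these genes in the levels of the 10 genes was not tested.

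Some mice stood at the edge of their group for many of the genes at once. Fc(mML1)B3 mouse 2 of the HFD experiment had the highest Fkbp5 (82.1 CPM), Zbtb16 (26.1 CPM), Tsc22d3 (226.5 CPM), Tat (2442 CPM), Gadd45g (45.5 CPM), Mt1 and Mt2 of its group and the lowest Nr3c1 (60.2 CPM). Fc mouse 10 of the same experiment had the highest Fkbp5, Zbtb16 and Tsc22d3 and the lowest Nr3c1 of the Fc group. Without these 2 mice in turn, Fkbp5 was at 1.05 and 1.22, Zbtb16 at 1.52 and 1.91, and all these fits called both genes.

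Such shared variation was measured over the 36 libraries after each group's mean log2 CPM was subtracted, for all 45 pairs of the genes, with permutation within groups. By both Pearson's r and Spearman's rho, 5 pairs were positive and 3 negative at an adjusted p below 0.05. Mt1 and Mt2 rose and fell together most closely (r = 0.96, rho = 0.94, permutation p = 1e-05 for both, the smallest that the resamples can give, adjusted p = 2.25e-04 and 4.5e-04), with r from 0.95 to 0.97 in the 4 groups and 0.93 without the 2 libraries farthest from the median of Mt1. Tsc22d3 and Tat had r = 0.69 and rho = 0.55 (permutation p = 2e-05 and 0.00144, adjusted p = 2.25e-04 and 0.0216), and r = 0.64 without 2 libraries. Among Fc(mML1)B3 mice under the HFD, however, this r was 0.08, and in the other groups it was 0.77 to 0.96.

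The receptor gene went the other way. Nr3c1 had r = -0.61 and rho = -0.58 with Tsc22d3 (permutation p = 2e-05 and 8.5e-04, adjusted p = 2.25e-04 and 0.0191) and r = -0.64 and rho = -0.51 with Tat (permutation p = 1e-05 and 0.00319, adjusted p = 2.25e-04 and 0.0261), negative in all 4 groups for both. Without 2 libraries these were -0.62 and -0.59. Fkbp5 and Zbtb16 had r = 0.43 and rho = 0.51 (permutation p = 0.00504 and 0.00383, adjusted p = 0.0252 and 0.0261), positive in all 4 groups, and r = 0.48 without 2 libraries. The remaining 3 pairs were Tsc22d3 with Sgk1 (r = 0.53), Tsc22d3 with Zbtb16 (r = 0.51) and Sgk1 with Hsd11b1 (r = -0.65). Reads of 1 library share its scaling, which enters every pair.

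**Figure D4:**
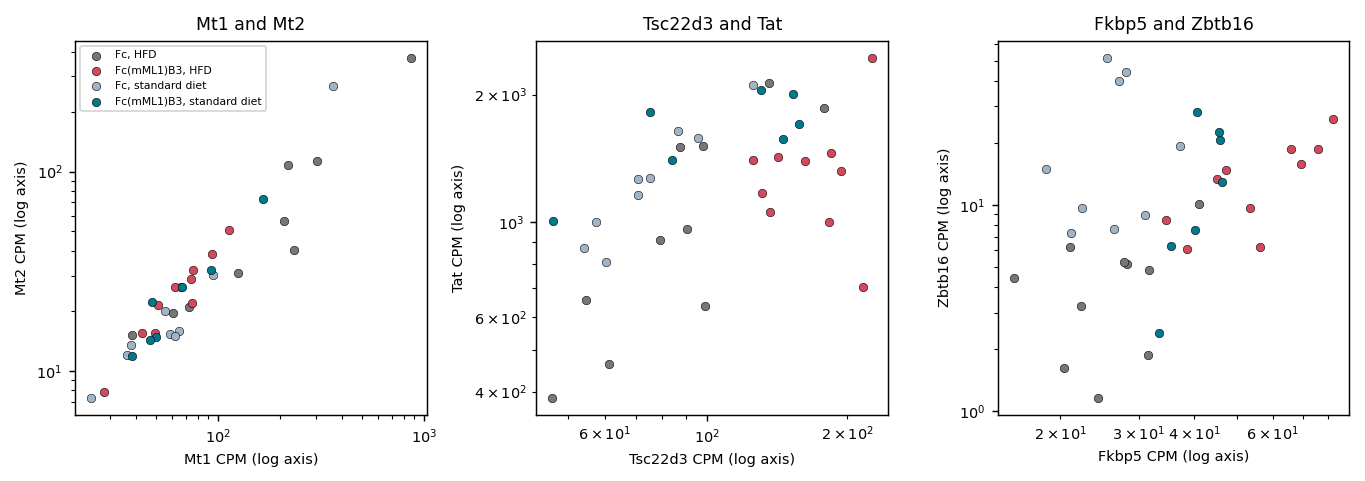
CPM of 3 pairs of genes on log axes, 1 point per mouse, coloured by group (n = 10, 10, 9 and 7). Mt1 and Mt2 lie close to 1 line over all groups, while under the HFD 8 of 10 Fc(mML1)B3 mice lie above every Fc mouse for Fkbp5 and 5 of 10 for Tsc22d3.

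The other genes of the pathway were read from lists, whose counts stand against the shares of all genes called higher and lower, 8.14% and 6.68% under the HFD and 8.56% and 7.55% under the standard diet. Earlier results of these data were known when the lists were chosen as well. Of 27 other glucocorticoid-induced genes tested, 3 were called higher and 2 lower under the HFD, with a median log2 fold change of 0.21. These counts are near the shares of all genes, and limma-voom with sample quality weights called 6 higher. Pdk4, which restrains glucose oxidation, was at 1.08 (SE 0.29, adjusted p = 0.0137), Cdkn1a, a cell cycle inhibitor, at 1.82 (SE 0.31) and Dexi at 0.73 (SE 0.12). Per1, a clock gene that the receptor induces directly, was lower at -0.77 (SE 0.20), and so was Nfkbia, the inhibitor of NF-κB, at -0.31 (SE 0.10). In 14 of the 20 fits without 1 mouse, 1 gene of the list was called lower in place of 2. Under the standard diet, 6 were called higher and 4 lower, with a median of 0.09, and with all 36 libraries in 1 fit 1 was called higher and 2 lower. Without 1 mouse, 3 to 7 were called higher, with 3 when Fc mouse 1 or 6 or Fc(mML1)B3 mouse 4 or 6 was left out. Per1 rose there by 0.72 (SE 0.12), with all 7 mice above the Fc median, and its difference between the diets was 1.51 (SE 0.26, adjusted p = 1.29e-04). Sds and Got1, enzymes of amino acid metabolism, both rose by 0.42, and Cps1 of the urea cycle by 0.19. Igfbp1 was lower at -1.50 (SE 0.33), Irs2 at -1.16 (SE 0.26), Klf9 at -0.62 (SE 0.16) and Cdkn1a at -0.58 (SE 0.17). Igfbp1 and Irs2 are known targets that insulin represses.

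Of 12 chaperones and cofactors of the receptor tested under the HFD, 5 were called higher and 1 lower, with a median of 0.32. The cytosolic chaperone genes Hspa8 (0.94, SE 0.12), Hsp90aa1 (1.08, SE 0.15) and Stip1 (0.80, SE 0.10) and Fkbp4 (0.67, SE 0.09), whose protein competes with FKBP51 on the receptor, were higher in all 10 Fc(mML1)B3 mice than the Fc median. Hspa8 ranged from 741 to 1464 CPM with Fc and from 1701 to 2526 CPM with Fc(mML1)B3, and the groups did not overlap. Nr3c2, the mineralocorticoid receptor, was lower at -0.75 (SE 0.23), a call lost without 1 mouse in 7 of 20 cases. Under the standard diet, Hspa8 was at 0.15, Hsp90aa1 at -0.06, Stip1 at 0.00 and Fkbp4 at 0.11. There, edgeR called 0 of the 12 higher (2 at an unadjusted p below 0.05, 0 with DESeq2 and 0 with limma-voom), and called the cofactors Ncoa2 (-0.25) and Ncor1 (-0.15) lower, of which 1 call was lost without 1 mouse in 6 of 16 cases. The interaction test called 6 of the 12 lower under the standard diet, among them Stip1 (-0.78, adjusted p = 1.33e-04) and Hsp90aa1 (-1.12, adjusted p = 1.65e-04).

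**Figure D5:**
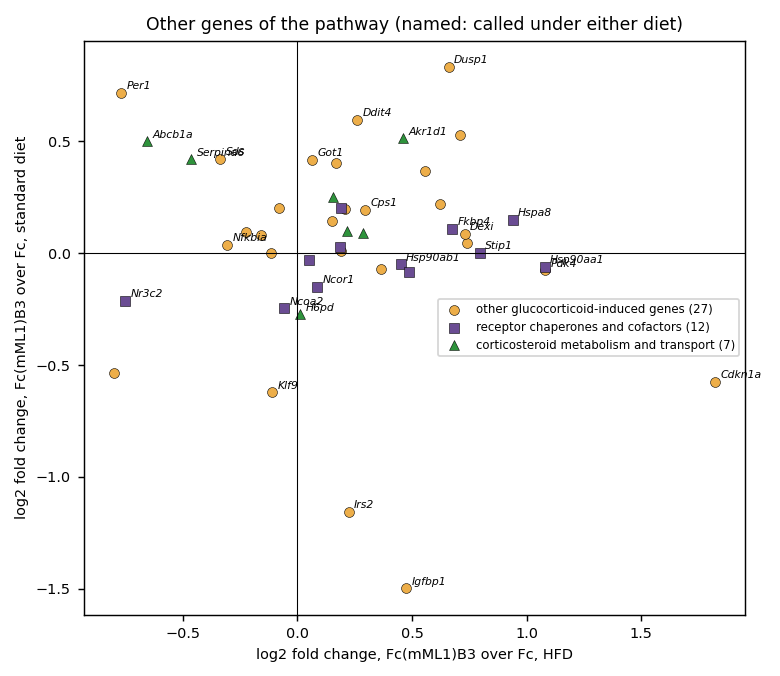
Log2 fold change of Fc(mML1)B3 over Fc under the HFD (horizontal) and the standard diet (vertical) for 27 other glucocorticoid-induced genes, 12 receptor chaperones and cofactors and 7 genes of corticosteroid metabolism and transport, with names where a gene was called under either diet. Hspa8, Hsp90aa1, Stip1 and Fkbp4 lie to the right near 0 on the vertical axis, and Per1 and Serpina6 lie at upper left.

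Of 7 genes of corticosteroid metabolism and transport, 1 was called higher and 2 lower under the HFD (median 0.16), and 3 higher and 1 lower under the standard diet (median 0.25). Akr1d1, a steroid reductase that inactivates glucocorticoids, was higher under both diets (0.46 and 0.52, SE 0.13 and 0.10). Serpina6, which encodes the corticosteroid carrier of plasma, was lower under the HFD at -0.46 (SE 0.14) and higher under the standard diet at 0.42 (SE 0.08), and this difference was called (0.90, adjusted p = 3.15e-04). Abcb1a, a pump that exports steroids, was at -0.66 and 0.50, and H6pd, which supplies the cofactor of the Hsd11b1 enzyme, was at -0.27 under the standard diet. The call of H6pd was lost without Fc(mML1)B3 mouse 5 or 6, and 1 of the 2 lower calls under the HFD was lost without Fc(mML1)B3 mouse 9.

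Of 8 metal response genes, 3 were called higher under the HFD (median 0.22), while Mt1 and Mt2 were lower. Slc30a10, a manganese exporter, rose by 2.16 (SE 0.27), from 1.75 to 12.5 CPM with Fc to 17.1 to 54.0 CPM with Fc(mML1)B3, with no overlap. Gclc, of glutathione synthesis, rose by 0.54 and Mtf1, the factor that binds metal response elements, by 0.22. EdgeR, DESeq2 and limma-voom each called 0 of the 8 lower, with 0 at an unadjusted p below 0.05. Under the standard diet, Slc30a1 rose by 0.28, a call lost without 1 mouse in 6 of 16 cases, and Slc30a10 (-0.65), Slc39a8 (-0.40) and Gclc (-0.45) were lower (median -0.12). Reads of Slc30a10, Mtf1 and Slc30a1, and among the other genes named here of Irs2, Sds, Nfkbia, Ncor1, Gadd45a, Dbp and Des, can include those of a gene that shares their exon sequence, because strand was not used in the counting.

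Of 10 relatives of these genes tested, Fkbp4 was called higher and Gadd45a (-0.90), Nr3c2 and Tsc22d4 (-0.37) lower under the HFD (median -0.12, 1 to 4 called lower without 1 mouse, against 6.68% of all genes), and Sgk2 (-0.88) lower under the standard diet (median -0.11). Of 15 acute phase genes, 0 were called under the HFD by the 3 tools (1 at an unadjusted p below 0.05, median 0.09), and the fibrinogen genes Fga (-0.52), Fgb (-0.43) and Fgg (-0.45) were called lower under the standard diet (median -0.25).

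Clock genes, which set the daily rhythm of many liver genes, differed between the proteins under both diets. Under the HFD, 5 of 16 were called higher and 8 lower (median -0.44), and under the standard diet 7 of 17 were called higher and 5 lower (median 0.14). Arntl ranged from 0.621 to 2.12 CPM with Fc and from 6.59 to 28.6 CPM with Fc(mML1)B3 under the HFD, a log2 change of 3.98, and was at -1.05 under the standard diet. Dbp, whose exons overlap Sphk2, was at -3.31 and 0.14 (not called). Per2, which also responds to glucocorticoids, was higher under both diets at 0.41 and 1.18. The part of the clock in the values of Fkbp5 and the other genes was not tested. Markers of cell types also moved. Under the HFD, the B cell markers Ms4a1 (-0.68) and Cd79b (-0.67) and Star (-0.48), a steroid synthesis gene among the adrenal cortex markers, were called lower, and the hepatocyte marker Hnf4a (0.37) higher. Under the standard diet, the stellate cell markers Pdgfrb (-0.51) and Des (-0.36) and the cholangiocyte marker Sox9 (-0.50) were called lower, and the hepatocyte marker Cyp2e1 (0.25) higher. Of the 6 hepatocyte markers tested, 5 were positive and 1 negative under the HFD (median 0.18), and 3 were positive and 3 negative under the standard diet (median -0.028). The adrenal cortex markers summed to 1.85 to 5.00 CPM over all libraries. The part of these markers in the values of Fkbp5 and the other genes was not tested.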

How the data were processed

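Liver RNA of 36 mice was measured by RNA-seq, 1 library per mouse, and mapped to 4 groups by the sample titles. The deposited values are counts, which the authors produced with fastp for trimming, Bowtie2 2.4.5 against ribosomal RNA, STAR 2.7.10a on mm10 and featureCounts 2.0.3. Each end of a pair was counted as a read, reads with several alignments were left out, and strand was ignored. Totals were 14949035 to 28466853 reads. Replicates are separate mice, and no pair of libraries within a group agreed within sampling noise (147 pairs, chi-square per degree of freedom at least 6.06).

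Counts were tested with edgeR 4.0.16 in R 4.3.3 (quasi-likelihood F-test, TMM, filterByExpr, Benjamini-Hochberg adjustment over all genes tested, call at an adjusted p below 0.05) within each diet, and over all 36 libraries for the interaction and the diet contrasts. For the 10 genes, mean log2(CPM + 0.5) was compared by permutation as well (2-sided, unadjusted, complete enumeration for the standard diet). Correlations used log2(CPM + 0.5), and their tests were chosen after seeing the data. Alternatives were DESeq2 1.42.0, limma-voom with sample quality weights (limma 3.58.1), upper-quartile normalization, no filter, the thresholds of the study, index series, a replicate block and each mouse left out. The edgeR fits were tested on simulated data.

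The 10 genes and the gene lists were chosen with earlier results of these data known. Named from each list but the clock genes were up to 4 called genes per direction and diet with the smallest p. Of the clock genes, only Arntl, Per1, Per2 and Dbp were named, whatever their p. The 5 genes most and 2 least like Fkbp5 were named as well. Index series were read from the names of the deposited count tables. The numbers in the titles do not pair the mice. Results for 1 gene list are not reported here.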

Additional observations from a re-analysis of the deposited data

Results flagged for a closer look

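Dixon's criterion at 95% was applied to CPM in 40 checks, 1 for each of the 10 genes in each of the 4 groups. In 10 checks, 1 mouse stood apart from the rest of its group. The criterion gives about 1 in 20 by chance only for independent, normally distributed values. CPM were not put on a log scale here and Mt1 and Mt2 varied together, so no excess over chance is read from this count. The 10 checks marked 7 mice, since Mt1 and Mt2 marked the same 3. Mt1 and Mt2 stood apart in Fc mouse 7 under the HFD (865 and 373 CPM), in Fc mouse 5 under the standard diet (365 and 269 CPM) and in Fc(mML1)B3 mouse 7 under the standard diet (166 and 72.5 CPM). Sgk1 stood apart in Fc mouse 8 (85.6 CPM) and in Fc(mML1)B3 mouse 5 (60.2 CPM) under the HFD. Tat did so in Fc(mML1)B3 mouse 2 under the HFD (2442 CPM) and Gadd45g in Fc(mML1)B3 mouse 3 under the standard diet (18.7 CPM). The effect of Fc(mML1)B3 on Zbtb16 differed between the diets, by -2.32 on the log2 scale (standard diet minus HFD, adjusted p = 0.0105 in the interaction test). The diets belong to separate experiments. Between them, Zbtb16 differed by 2.38 in the Fc groups and by 0.06 in the Fc(mML1)B3 groups.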

How the results depend on the processing

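For the standard diet, the study's thresholds were run as its legend states them, and Fkbp5 missed the fold change above 2 of its text. Fkbp5 was called higher under both diets, and Zbtb16 and Tsc22d3 under the HFD, in every alternative run, except that Tsc22d3 missed the fold limit of the study's thresholds. Under the HFD, 2 of the 10 genes were higher at those thresholds in place of 4. The count of lower genes there was 1 in place of 2 with limma-voom and 0 with Fc(mML1)B3 mice 1 to 4 only. Leaving out single mice gave 3 to 4 higher and 1 to 3 lower for the HFD, 1 to 2 higher and 0 to 0 lower for the standard diet, and 0 to 2 higher and 1 to 1 lower for the interaction. For standard diet against HFD it gave 2 to 3 higher and 1 to 3 lower in the Fc groups, and 1 to 1 higher and 1 to 3 lower in the Fc(mML1)B3 groups. In the Fc groups, limma-voom called 4 higher in place of 2. The cause was not tested. Upper-quartile normalization changed the split of all calls under the HFD from 1083 higher and 889 lower to 865 and 1075, and in the Fc groups from 3288 and 3471 to 2523 and 4795, and in the Fc(mML1)B3 groups from 2914 and 2520 to 2208 and 3799. Limma-voom with sample quality weights called 1643 higher and 1396 lower under the HFD, and 1015 and 1011 in place of 657 and 621 for the interaction. Leaving out Fc(mML1)B3 mouse 5 of the HFD experiment gave 1402 higher and 1446 lower under the HFD, and leaving out mouse 4 gave 920 and 644. Under the HFD, Fc(mML1)B3 mice 1 to 4 gave 413 higher and 292 lower and mice 5 to 10 gave 991 and 712, and the index series with both proteins gave 518 and 424 in place of 1162 and 1024 for the standard diet. Number of mice and index series changed together there. With all 36 libraries in 1 fit the HFD gave 1542 and 1591 and the standard diet 459 and 326.

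Same-numbered mice deviated together in 1 of 10 pairs of the HFD experiment and 0 of 7 of the other (correlations of -0.62 to 0.26 and -0.16 to 0.00). With a replicate block, all calls were 731 higher and 563 lower in the HFD experiment, 713 and 583 in the other experiment and 392 and 416 for the interaction. In that fit, Mt2 (-0.98) and Hsd11b1 (0.36) lost their calls under the HFD, leaving 1 lower gene, and the interaction called 0 lower genes because Zbtb16 had an adjusted p of 0.0656. The block also reversed uncalled values, namely Sgk1 under the standard diet (-0.022), Tat in the interaction (-0.037), Fkbp5 in the Fc groups (0.040), and Zbtb16 (-0.076), Mt1 (-0.32), Mt2 (-0.50) and Hsd11b1 (0.014) in the Fc(mML1)B3 groups.

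Other reversals were all of uncalled values. Nr3c1 was at 0.042 under the HFD with mice 5 to 10 only. Under the standard diet, the index series that holds both proteins gave -0.0035 for Nr3c1, -0.029 for Sgk1, 0.69 for Mt1 and 0.99 for Mt2. Upper-quartile normalization gave -0.0096 for Sgk1, limma-voom 0.074 for Mt1 and 0.28 for Mt2, and DESeq2 0.75 for Mt2, after it replaced the 5542 reads of Fc mouse 5 by 384 as an outlier. Limma-voom gave -0.25 for Tat in the interaction, 0.025 for Fkbp5 and 0.097 for Gadd45g in the Fc groups and -0.099 for Zbtb16 in the Fc(mML1)B3 groups. Fkbp5 in the Fc groups was 0.0095 without a filter, and Zbtb16 in the Fc(mML1)B3 groups -0.033 with upper-quartile normalization. Leaving out single mice gave -0.055 to 0.0053 for Nr3c1 and -0.16 to 0.61 for Gadd45g in the HFD experiment, -0.061 to 0.057 for Sgk1, -0.63 to 0.42 for Mt1 and -1.13 to 0.77 for Mt2 under the standard diet, and -0.11 to 0.19 for Tat in the interaction. It gave -0.077 to 0.086 for Fkbp5 and -0.43 to 0.12 for Gadd45g in the Fc groups, and -0.21 to 0.24 for Zbtb16, -0.23 to 0.24 for Mt1, -0.37 to 0.25 for Mt2 and -0.052 to 0.031 for Hsd11b1 in the Fc(mML1)B3 groups. Zbtb16 had as few as 22 reads in a library, and the part of depth in its values was not tested.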

Other observations

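Over all 36 libraries, with the group means subtracted, the genes whose log2 CPM varied most like Fkbp5 among 14104 others were St3gal5 (r = 0.70), Aifm2 (0.64), 1810055G02Rik (0.63), Srrm4 (0.63) and Susd6 (0.60). Ing4 (-0.61) and Hnrnpr (-0.60) varied most in the opposite way. St3gal5 was positive in all 4 groups (0.40 to 0.84), while 1810055G02Rik was at -0.43 in the Fc group under the standard diet. Of the 9 other glucocorticoid target genes, Zbtb16 was nearest to Fkbp5 (r = 0.43) and Nr3c1 was farthest (r = -0.39, rank 13878). These correlations are descriptions, and the libraries share their scaling.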
